A study of Mus musculus with 2 samples.

Results

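The Zfp genes are mouse zinc finger genes, named for the finger-like folds that hold a zinc ion and usually read a short stretch of DNA. They were taken here as every gene whose symbol in the array annotation is Zfp followed by a number, leaving out Zfp36 and its Zfp36l relatives, with at least 1 probe at a detection p under 0.01 on either array. Of 277 such genes with a probe, 144 were members by this rule, which is 52.0% beside 48% of all 16593 genes on the array. The members were thus chosen by their detection p values on the same arrays that are compared below. RNA came from mouse skin keratinocytes sorted for integrin alpha6, which anchors basal cells to the basement membrane, and for absence of CD34, found on hair follicle bulge cells. The control pool (CON) came from Med1 fl/fl C57BL6 littermates without Cre, and the knockout pool (Med1cKO) from Med1 fl/fl mice with Cre driven by Krt14, the keratin 14 gene of basal epidermis and outer follicle, so that both pools carried the floxed alleles. Cells of 3 mice per genotype were combined before sorting and each pool was measured on 1 Illumina bead array, and neither age nor the deleted exons are given in the sources used here. Other label text describes RNA of whole skin from single mice, and the sorted origin was used because the source, cell type and design entries give it.

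Most Zfp proteins bind DNA through tandem C2H2 fingers, each shaped by paired cysteines and histidines. Many of them also carry a KRAB domain, which recruits the corepressor Trim28 and through it the histone methyltransferase Setdb1, and this system is best known for silencing retroelements and guarding imprints. KRAB zinc finger genes often lie side by side in clusters that grew by gene duplication. Other Zfp genes have no KRAB domain and act in cell fate, RNA handling or protein modification. Among these is Zfp750, a gene of epidermal differentiation downstream of p63. Med1, the deleted gene, encodes a subunit of Mediator, a large coactivator complex that bridges bound transcription factors and the polymerase.

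With 1 array per genotype there was no replicate error and no test, and every difference below compares 2 pools. The number of arrays limits the precision. Median probe intensities were 197.6 in CON and 191.2 in Med1cKO, and the dimmest detected probe read 239.2 on the CON array and 219.4 on the other, so a gene had to be brighter to count as detected in CON. The probe used for Med1 read 793.6 in CON and 452.2 in Med1cKO, 1.67-fold lower without background correction; whether it lies in the deleted part is not known here. All 6 basal keratinocyte markers were detected on both arrays, and 5 of them read lower in Med1cKO, with a summed intensity of 133072 in CON and 119019 in Med1cKO. Krt5 read 24661 and 17605, a log2 ratio of -0.48, and Krt14 was the 1 basal marker above 0, at 37038 and 38429, while Cd34 was dim, at 320.7 and 279.3. The summed intensity of 4 markers of the differentiating layers above the basal cells was 52065 in CON and 52587 in Med1cKO. Their log2 ratios were 0.08 for Krt10, 0.06 for Lor, 0.33 for Ivl and -0.21 for Krt1. Markers of several other cell types were higher in the Med1cKO pool. The summed intensity of 6 fibroblast markers was 970.5 in CON and 3654 in Med1cKO, that of 4 T cell markers 6909 and 10812, and that of 4 Langerhans cell markers 2099 and 3590, with 4 genes detected of each list. Of the fibroblast list none was detected in CON, and no endothelial marker was detected on either array. The summed intensity of 11 early response genes was 145409 in CON and 183443 in Med1cKO. Their median log2 ratio was 0.26, with 9 above 0 and Fos at 0, while Klf2 was lower, at 3707 in CON and 1277 in Med1cKO. The globin gene Hba-a1 read 492.1 in CON and 2231 in Med1cKO. In bulk RNA, fewer cells of a type and less RNA per cell cannot be told apart, and the part of these other cells, of the lower basal markers and of the early response in the Zfp values was not tested.

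Zfp genes were mostly lower in the Med1cKO pool. Ratios are log2 values of Med1cKO minus CON after background correction and quantile normalization. Of the 144 members, 107 (74.3%) had a ratio below 0, beside 54.3% of the 7955 detected genes. The median ratio of the members was -0.30, with quartiles of -0.63 and 0.01, while the median of all detected genes was -0.04. At least 1.5-fold differences were more often downward, with 36 members lower (25% of members, against 8.28% of all detected genes) and 5 higher (3.47% against 9.25%). At least 2-fold differences were found for 11 lower members (7.64% against 1.81%) and 2 higher members (1.39% against 3.95%). Without these 13 members, the remaining 131 had a median of -0.27, with 96 of them below 0.

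Without background correction the differences were smaller. In that setting the median of the members was -0.19 and 14 were at least 1.5-fold lower (9.72% of members, against 3.12% of all genes), but none was 2-fold lower, against 0.553% of all genes. The authors' normalized values likewise put none at 2-fold lower, against 0.578% of all genes, and 14 at 1.5-fold lower, against 3.22%. The sign of a ratio follows from a probe's rank on each array after quantile normalization, so background correction could not change the number below 0.

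**Figure D1:**
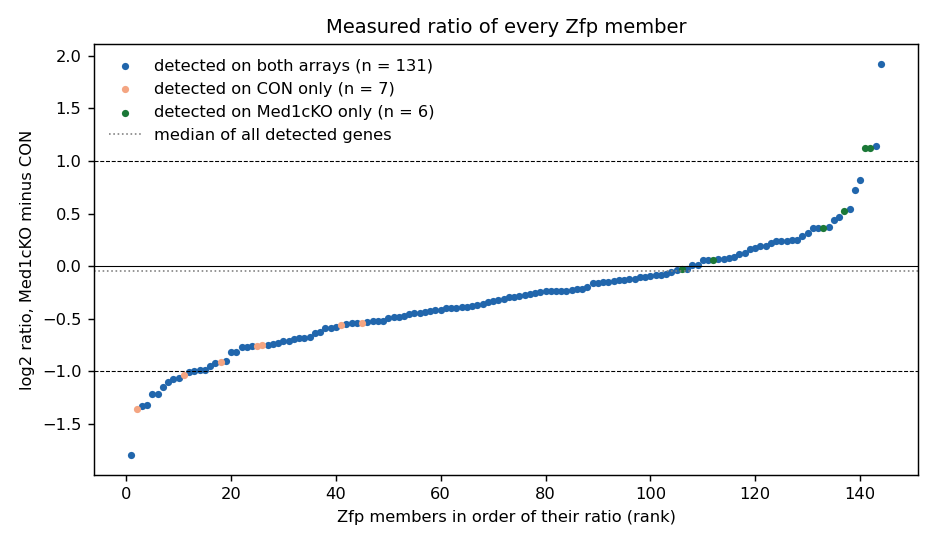
Log2 ratio of Med1cKO over CON (vertical axis) for each of the 144 Zfp members, in order of the ratio (horizontal axis, rank), coloured by the arrays that detected the gene. The dashed lines mark 2-fold and the dotted line the median of all detected genes at -0.04; 107 members lie below 0.

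Because the members were selected on detection and the arrays had different detection limits, genes seen on 1 array do not support the direction. There were 7 such members in CON and 6 in Med1cKO, and 131 were detected on both arrays. Over these 131 the median ratio was -0.30 and 99 were below 0. For a gene seen on 1 array only a bound can be given, written as at least N-fold, against the lowest level that array could detect. With those bounds in place of the measured values the median of all 144 was -0.29. By measured ratio, 13 members were at or under -1, a further 26 lay down to -0.58, 68 between -0.58 and 0, 31 between 0 and 0.58, 2 between 0.58 and 1, and 4 at 1 or above. At the edge of the rule, Zfp30, Zfp39 and Zfp182 were just inside with a lowest detection p of 0.00752, and Zfp11, Zfp61 and Zfp687 just outside, at the next value above the limit.

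More members than other genes were below 0 in each band of expression level, and the median was lowest among dim members. Members had a median intensity of 475.8 in CON and 380.4 in Med1cKO, beside 840.5 and 797.7 for all detected genes. Member intensities ran from 189.3 to 5528 in CON and from 189.4 to 3905 in Med1cKO. The members were split by mean level into a dim, a middle and a bright band of 48 each. In the dim band 39 members (81.2%) were below 0 with a median of -0.48, where 48.5% of 1593 other genes of that level were below 0 with a median of 0.03. In the middle band 37 (77.1%) were below 0 with a median of -0.29, beside 56.0% and -0.06 for 1551 other genes. All 13 members seen on 1 array lay in the dim band, and without them 31 of 35 (88.6%) were below 0 with a median of -0.47, beside 61.1% and -0.13 for 848 other genes seen on both arrays. In the bright band 31 (64.6%) were below 0 with a median of -0.15, beside 55.1% and -0.04 for 4667 other genes. All 11 members that were 2-fold lower belonged to the dim and middle bands, and both that were 2-fold higher to the bright band. A robust SD of the ratios of genes of similar level, which is a spread between genes and no replicate error, was 0.97 for the dimmest and 0.23 for the brightest of 10 groups of genes split by level.

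**Figure D2:**
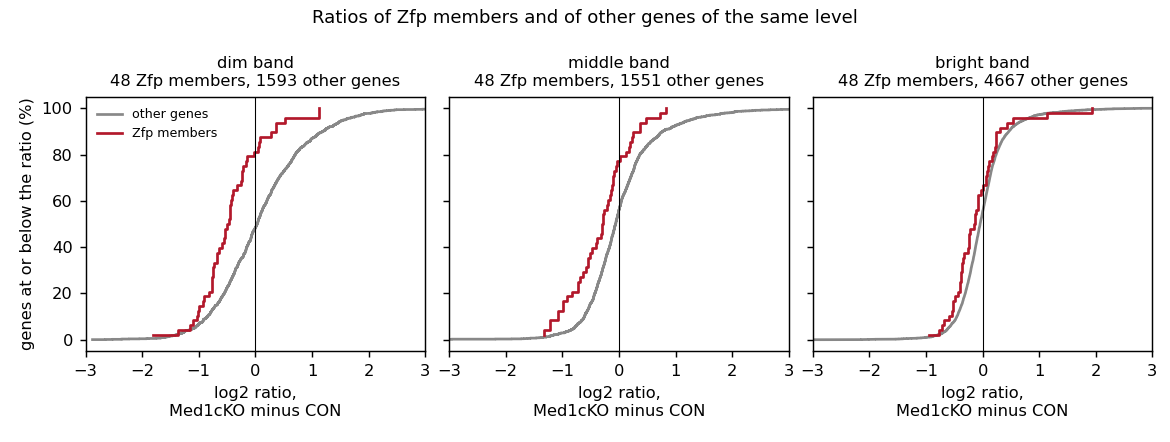
Share of genes (vertical axis, percent) at or below each log2 ratio of Med1cKO over CON (horizontal axis) for Zfp members (red) and other detected genes (grey) of the same level, in 3 bands of 48 members. The red curve lies left of the grey one over most of its course, with medians of -0.48, -0.29 and -0.15 beside 0.03, -0.06 and -0.04.

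The member with the highest ratio was Zfp296, a factor known from mouse embryonic stem cells, where it takes part in reprogramming and in heterochromatin. Its intensity was 527.4 in CON and 1491 in Med1cKO, 3.80-fold higher after background correction and 2.99-fold without it. A second Zfp296 probe read 323.3 and 756.8, so both probes were brighter in the Med1cKO pool, with log2 ratios of 1.93 and 1.89. The ratio was 5.25 times the robust SD of genes of its level, a multiple that follows in part from its choice as the highest.

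Zfp750, which drives terminal differentiation of epidermal cells with Klf4, was the other member at least 2-fold higher and had the highest intensity of any member in the Med1cKO pool. Its single probe read 1930 in CON and 3905 in Med1cKO, 2.21-fold higher, or 2.11-fold without background correction. Both genes were brighter on the Med1cKO array, with all values above the dimmest detected probe of either array.

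By the brightest probe of each gene, the next members on the higher side, among those detected on both arrays, differed by less than 2-fold. Zfp91, a ubiquitin ligase of non-canonical NF-kB signalling, read 428.7 in CON and 613.7 in Med1cKO (1.77-fold higher). Zfp593, whose yeast counterpart helps export large ribosomal subunits, read 465.2 and 637.2 (1.65-fold). Zfp131, a zinc finger protein with a BTB domain, read 2400 and 3274 (1.46-fold). These 3 genes were higher by 1.80, 1.58 and 1.87 times the robust SD of similar genes. With the brightest probe of each gene, no member after Zfp750 exceeded 2 times that spread on the higher side. Zfp281, a repressor and pluripotency regulator, had a ratio of 0.47, and Zfp326, of the DBIRD complex that couples elongation to splicing, 0.44. The other 2 Zfp326 probes, dimmer and also detected on both arrays, had ratios of 1.49 and 1.57. Zfp948, Zfp553 and Zfp623 completed the 10 highest among members detected on both arrays, with ratios of 0.37, 0.36 and 0.36.

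On the lower side Zfp846 had the lowest ratio and read 427.2 in CON against 223.0 in Med1cKO. It was 3.48-fold lower after background correction and 1.84-fold without it, and its Med1cKO value was near the dimmest detected probe. Zfp41 read 583.1 in CON and 312.2 in Med1cKO (2.51-fold lower), and a second probe read 506.3 and 310.4, with log2 ratios of -1.33 and -1.06. Zfp467, which promotes adipocyte over bone formation in mouse marrow stroma, read 748.3 and 376.3 (2.50-fold lower). Zfp60, a KRAB zinc finger gene, read 583.5 and 325.4 (2.33-fold lower), while a second probe was near background on both arrays. All 4 genes were dimmer on the Med1cKO array, with ratios from -2.66 to -3.26 in units of the robust SD at their level.

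The remaining 2-fold lower members were dim in the Med1cKO pool. Zfp760 was 2.32-fold lower, Zfp3 2.22-fold, Zfp398, whose human counterpart binds the estrogen receptor, 2.15-fold, and Zfp202, whose human counterpart represses lipid metabolism genes, 2.10-fold. Zfp420, whose human counterpart restrains p53 through the KRAB corepressor, was 2.10-fold lower, and Zfp748 2.02-fold. Zfp217, whose human counterpart is a repressor amplified in breast cancer, read 326.2 in CON and 231.3 in Med1cKO and lay just past the 2-fold limit. Without background correction these 7 genes were 1.36-fold to 1.63-fold lower. In units of the robust SD at its level, the ratio of Zfp217 was -1.81, the smallest in size of the 11.

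**Figure D3:**
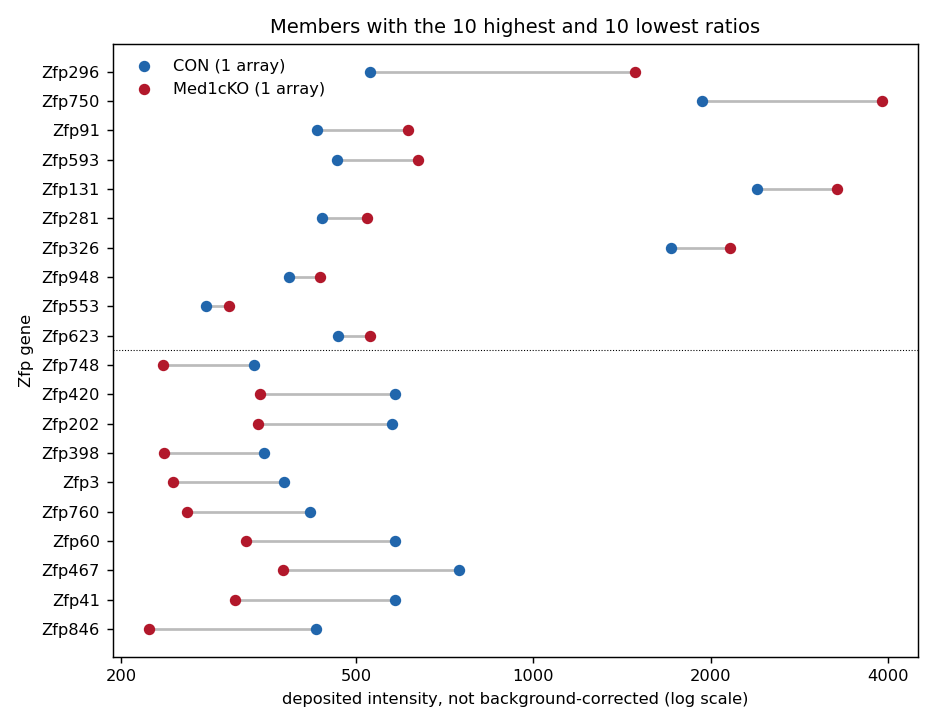
Deposited intensity (horizontal axis, log scale, background included) on the CON array (blue) and the Med1cKO array (red) for the Zfp members with the 10 highest and 10 lowest ratios among those detected on both arrays. Each line joins the 2 values of a gene, from 223.0 for Zfp846 in Med1cKO to 3905 for Zfp750 in Med1cKO.

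Promoters of these genes were read from RefSeq (GRCm38.p6), 250 bases before to 50 after the start, taking the most upstream start where a gene has several. Of the 144 members, 118 had an entry. Those of 2 members from the higher end (Zfp296 and Zfp91) and 2 from the lower end (Zfp846 and Zfp60) are shown as examples from each side of the ranking. They were chosen after ratios and sequences were seen, and Zfp91 and Zfp60 are not the most extreme. Capitals mark matches on either strand to 4 motifs.
Zfp296, chr7:19577037-19577336, plus strand: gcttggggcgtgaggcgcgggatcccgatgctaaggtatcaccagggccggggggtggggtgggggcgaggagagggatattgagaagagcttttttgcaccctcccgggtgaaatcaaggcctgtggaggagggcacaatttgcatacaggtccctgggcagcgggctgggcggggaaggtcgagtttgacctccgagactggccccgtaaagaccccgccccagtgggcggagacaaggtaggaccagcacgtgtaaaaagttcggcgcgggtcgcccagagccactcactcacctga
Zfp91, chr19:12796074-12796373, minus strand: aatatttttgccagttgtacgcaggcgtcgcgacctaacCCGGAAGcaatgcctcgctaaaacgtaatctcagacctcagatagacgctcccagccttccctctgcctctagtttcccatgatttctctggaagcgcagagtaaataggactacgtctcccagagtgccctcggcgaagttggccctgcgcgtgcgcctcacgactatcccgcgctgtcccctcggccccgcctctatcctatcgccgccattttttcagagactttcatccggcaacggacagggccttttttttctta
Zfp846, chr9:20581078-20581377, plus strand: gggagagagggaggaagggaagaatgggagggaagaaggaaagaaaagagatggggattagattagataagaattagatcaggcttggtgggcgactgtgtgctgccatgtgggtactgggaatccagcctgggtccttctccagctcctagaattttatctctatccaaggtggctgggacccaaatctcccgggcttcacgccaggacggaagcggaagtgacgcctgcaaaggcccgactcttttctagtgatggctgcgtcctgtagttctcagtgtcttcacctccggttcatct
Zfp60, chr7:27731159-27731458, plus strand: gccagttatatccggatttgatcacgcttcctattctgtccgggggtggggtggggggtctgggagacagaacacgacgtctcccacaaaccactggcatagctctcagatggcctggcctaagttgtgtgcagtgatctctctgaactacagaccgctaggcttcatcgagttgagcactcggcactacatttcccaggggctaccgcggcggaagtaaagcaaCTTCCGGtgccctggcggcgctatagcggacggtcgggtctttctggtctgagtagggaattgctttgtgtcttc

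The motifs searched on both strands were those of ETS factors (CCGGAAG), CRE (TGACGTCA), the CCAAT box (CCAAT) and YY1 (AAGATGGCG), and in 0 of the 118 member promoters did matches of different motifs overlap. Zfp91 on the higher side and Zfp60 on the lower side each held 1 ETS match, and Zfp296 and Zfp846 held none of the 4 motifs. The CCAAT box was present in 60 of the 118 member promoters (50.8%), beside 39.2% of the promoters of detected genes and 38.0% of all 27025 promoters. ETS matches were present in 20.3% of members and 19.6% of detected genes, beside 9.14% of all promoters. CRE was present in 3.39% of members, 3.39% of detected genes and 1.85% of all promoters. YY1 was present in 3.39% of members and 3.54% of detected genes. Among the 32 promoters of members at least 1.5-fold lower, 19 (59.4%) held a CCAAT box and 7 (21.9%) an ETS match, and among the 83 of members with smaller differences 40 (48.2%) and 16 (19.3%). Lower members had a median of 13.5 CpG dinucleotides per promoter and the members with smaller differences 18, beside 21 for detected genes. Median GC content was 56.7% in member promoters, beside 61% for detected genes and 52.7% for all promoters. Within the members it was 54% for the lower ones and 57.7% for those with smaller differences. The motif shares were not adjusted for GC content, are letter matches and say nothing of binding.

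Apart from Zfp750, the brightest members differed by less than 2-fold between the pools. By mean level the 10 brightest were Zfp362, Zfp46, Zfp330, Zfp277, Zfp212, Zfp282, Zfp263, Zfp131, Zfp750 and Zfp943. Zfp362, the brightest in CON, read 5528 there and 3790 in Med1cKO (1.44-fold lower), and Zfp943 read 2905 and 1771 (1.60-fold lower). Zfp277, which represses the cell cycle inhibitor locus Ink4a with Bmi1 in mouse fibroblasts, read 3395 and 3074, a ratio of -0.09. Zfp330 had a ratio of 0.06, Zfp46 0.24, Zfp263 -0.13, Zfp212 -0.32 and Zfp282 -0.34. Ratios spread less between genes at this level, with a robust SD of 0.29 to 0.32, and several of these ratios were larger in size than that.

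**Figure D4:**
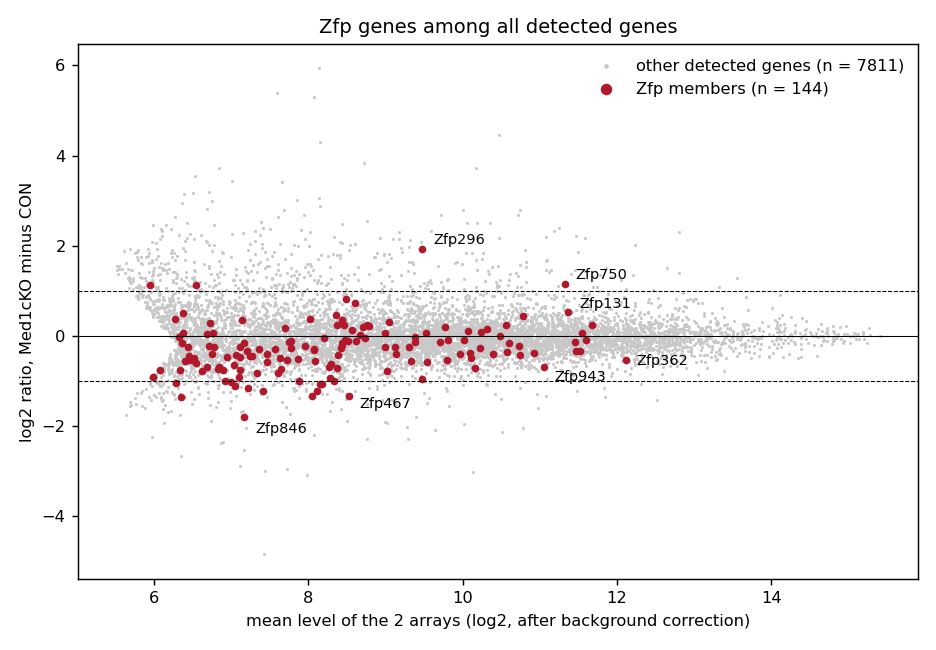
Log2 ratio of Med1cKO over CON (vertical axis) against the mean log2 level of both arrays (horizontal axis) for 144 Zfp members (red) and 7811 other detected genes (grey). Dashed lines mark 2-fold; Zfp296 and Zfp750 lie above the upper line at 1.93 and 1.14, and Zfp846 lies lowest of the members at -1.80.

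Zfp genes with cell fate roles were spread to both sides. Of 13 with a probe, 6 were detected, 1 at least 2-fold higher (Zfp750) and 2 at least 2-fold lower (Zfp467 and Zfp217), with a median of -0.41. Among all detected genes 3.95% were 2-fold higher and 1.81% lower, and 6 genes are too few to compare with these shares. Zfp281 was higher by 0.47, and Zfp608 and Zfp219 had -0.45 and -0.37. Zfp42, a marker of pluripotent cells, and Zfp423, a factor of adipocyte precursors, were not detected on either array.

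Members that handle RNA had a median of -0.12 over 8 detected genes of 14. None of them was 2-fold different by the brightest probe of each gene, where 3.95% of all detected genes were higher and 1.81% lower. By that probe Zfp593 had the highest ratio of this list at 0.72 and Zfp326 had 0.44, but with the mean of all detected probes Zfp326 was at 1.17, past 2-fold and above Zfp593. Zfp346, which binds double-stranded RNA, read 555.2 in CON and 385.8 in Med1cKO (1.62-fold lower), and Zfp106, another RNA-binding protein, read 268.1 and 221.8, a ratio of -0.59. Zfp207, a spindle protein that binds Bub3, Zfp638, which silences unintegrated retroviral DNA, and Zfp598, which marks collided ribosomes with ubiquitin, lay at -0.15, -0.08 and -0.13. Of the 3 ubiquitin or SUMO ligases detected, Zfp91 had 0.82, Zfp451, which extends SUMO chains, 0.31, and Zfp598 -0.13.

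Members that act as activators or chromatin recruiters had a median of -0.03 over 11 detected genes of 14, with none 2-fold different. Among all detected genes 3.95% were 2-fold higher and 1.81% lower, so a list of this length would often hold none. Zfp644, whose human counterpart joins the G9a and GLP methyltransferases, read 1659 in CON and 1014 in Med1cKO (1.64-fold lower). It was the 1 member of this list that was 1.5-fold lower (9.09%, beside 8.28% of all detected genes). Zfp131, Zfp281, Zfp410, which activates Chd4, and Zfp64 were on the higher side at 0.54, 0.47, 0.25 and 0.19. Another Zfp410 probe detected on both arrays was at -0.28. Zfp532 and Zfp335 had -0.39 and -0.33.

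Of the genes listed for silencing of imprints and retroelements, 3 of 7 with a probe were detected. Zfp97 read 849.1 in CON and 535.1 in Med1cKO (1.71-fold lower), and Zfp809, which recognises the primer binding site of murine leukemia virus, read 465.5 and 498.5, a ratio of 0.25. Zfp30 was detected in Med1cKO only, at 234.7 and 225.3, with no fold to give. Zfp445 and Zfp568 were not detected.

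Partners of KRAB proteins were also measured. Of 22 corepressor and heterochromatin genes listed, 18 had a probe and 13 were detected, none of them 1.5-fold different in either direction, with a median of -0.08. Among all detected genes 9.25% were 1.5-fold higher and 8.28% lower, and this list is brighter than most, with a median log2 level of 10.6 beside 9.38 for all detected genes. Trim28 read 4189 in CON and 3923 in Med1cKO, a ratio of -0.06, and Setdb1 725.7 and 598.4, a ratio of -0.28. Cbx5, which encodes the heterochromatin protein HP1 alpha, had the lowest ratio of the list at -0.53, and Trim33 the highest at 0.25.

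Among other zinc finger families, the Zscan and Zkscan median was close to that of the Zfp members (-0.30). All 10 detected Zscan and Zkscan genes, which carry a SCAN domain that pairs zinc finger proteins, had a ratio below 0. Their median was -0.36, and 54.3% of all detected genes were below 0. The 9 detected on both arrays were all below 0 with a median of -0.29, beside 56.5% of all genes seen on both. Of the 10 genes, 1 (10%) was at least 1.5-fold lower, beside 8.28% of all detected genes. That gene, Zkscan4, was detected in CON only and at least 1.64-fold lower. The 18 detected genes with symbols beginning Zbtb, most of which encode BTB zinc finger proteins, had a median of -0.13, with 11 below 0. Of them 3 (16.7%) passed 1.5-fold on the higher side and 1 (5.56%) on the lower side, beside 9.25% and 8.28% of all detected genes. Zbtb7a had the highest ratio of these at 1.60 and Zbtb7c the lowest at -0.87. Zfp36 and Zfp36l1, which bind AU-rich mRNA and are not DNA-binding zinc fingers, were bright and lay at 0.22 and 0.26. The differences between these families were not tested.

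**Figure D5:**
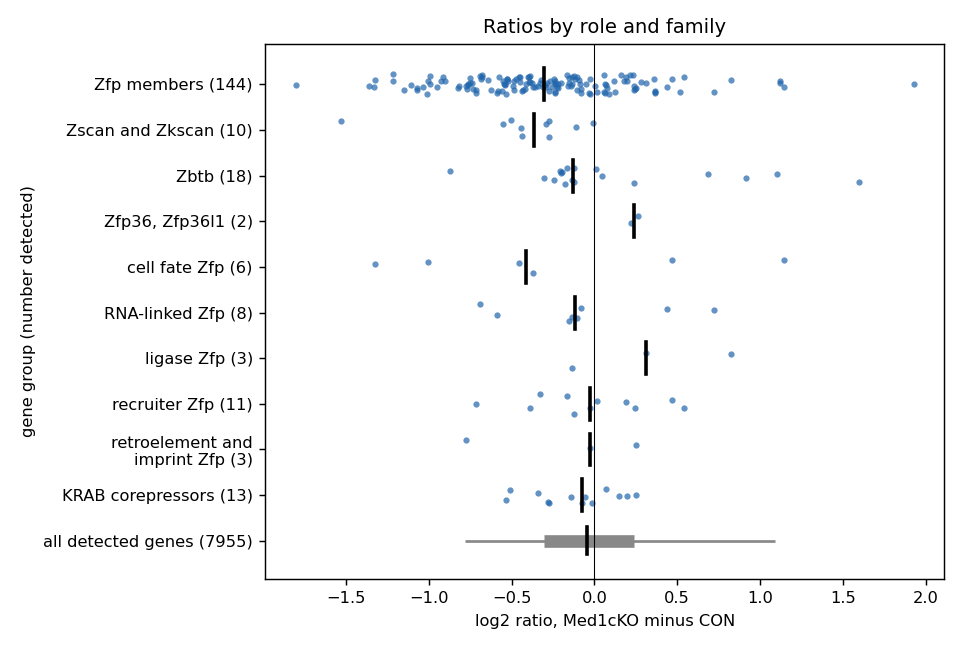
Log2 ratio of Med1cKO over CON (horizontal axis) for detected genes of each role list or zinc finger family (vertical axis), 1 point per gene with the median as a black bar. For all detected genes the thick bar spans the quartiles and the thin line the central 90 percent; the medians of the Zfp members (-0.30) and of the Zscan and Zkscan genes (-0.36) lie left of the median of all genes (-0.04).

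Ratios below 0 were found in a larger share of members that neighbour each other in the genome than of members standing alone, a difference that was not tested. By the order of protein-coding genes in RefSeq, 54 members had another member with at most 2 coding genes between them, and 43 of these (79.6%) were below 0 with a median of -0.40. Of the 90 members standing alone, 64 (71.1%) were below 0 with a median of -0.25. Among those detected on both arrays the numbers below 0 were 39 of 48 and 60 of 83. The neighbours were also dimmer, with a median CON intensity of 418.0 beside 534.0. Of the 54 neighbours 6 (11.1%) were 2-fold lower and 0 were 2-fold higher. Of the 90 alone 5 (5.56%) were lower and 2 (2.22%) higher, beside 1.81% and 3.95% of all detected genes. These counts are too small to set the 2 places apart.

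Of 13 members in 3 runs of at least 4 neighbouring members, 11 were detected on both arrays, and all 11 had a ratio below 0. Most members did so wherever they lay, with 99 of the 131 detected on both arrays (75.6%) and 39 of 48 neighbours below 0. Zfp459 and Zfp30 were seen on 1 array and are left out of the values that follow. In the run from Zfp459 to Zfp738, which holds Zfp58, Zfp87 and Zfp748, the 4 ratios ran from -1.01 to -0.24 with a median of -0.84. In the run from Zfp398 to Zfp956, which holds Zfp282 and Zfp212, the 4 ratios ran from -1.10 to -0.32 with a median of -0.67, and the 1 detected gene of another kind in that stretch, the protein disulfide isomerase Pdia4, had -0.19. In the run from Zfp30 to Zfp27, with Zfp790 and Zfp420, the 3 ratios ran from -1.07 to -0.28 with a median of -0.48. Neighbouring Zfp genes can be similar in sequence, so a probe may also bind a relative, and such members are not independent.

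Members seen on 1 array were all dim. In CON only, the 5 brightest were Zfp324, Zfp606, Zfp329, Zfp459 and Zfp873, at least 1.52-fold, 1.39-fold, 1.42-fold, 1.43-fold and 1.78-fold lower in Med1cKO. Zfp39 and Zfp182 had bounds of 1.19-fold and 1.18-fold. In Med1cKO only, Zfp52 had a bound of 1.61-fold higher, Zfp280b of 1.17-fold, Zfp772 of 1.07-fold and Zfp612 of 1.03-fold. No fold can be given for Zfp1 and Zfp30, which read slightly higher in CON, where the detection limit lay higher. None of these bounds reached 2-fold.

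Several probes of 1 gene gave a check within the arrays, although they share the same RNA. For 24 members at least 2 probes were detected on both arrays, and in 20 the 2 brightest had the same sign. Their ratios differed by a median of 0.18 and by at most 1.06, for Zfp326. For Zfp87 they were -0.93 and -1.11, for Zfp317 -0.26 and -0.56, and for Zfp131 0.54 and 0.41. Zfp292, Zfp367, Zfp654 and Zfp771 had probes of opposite sign, and in all but Zfp771 both ratios were small.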

How the data were processed

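The deposited intensity values of 2 arrays are linear and not normalized, per the file headers, and each stands beside a deposited detection p-value. The submitters' processing notes name GenomeStudio 2011.1. Deposited intensities that the authors had normalized, by a method not given in the sources used here, served as an alternative. Their medians were 198.4 (CON) and 198.7 (Med1cKO), and they are linear and uncentred and rank probes as the raw values do. Values were corrected with neqc of limma 3.58.1 (R 4.3.3, offset 16, quantile normalization), checked on simulated data. Python 3.11.15 was used after that. The annotation gave 1 symbol for 23978 of 25697 probes and none for 1719; RefSeq matched 23962. A gene was its probe with the highest mean level. No test was possible with 1 array per group. Named genes were the 10 highest and 10 lowest ratios, the 5 brightest per array among genes detected on 1 array, the 10 brightest, all 2-fold members, up to 4 per role list and 3 on each side of the detection limit, and other genes named were picked after their values were seen. Members and lists were chosen with earlier results of these data known. Level bands, the definition of neighbours, the motifs and the printed promoters were set after the members' ratios had been seen. Longer motifs (NRF1, ZNF143 and a palindrome) were also searched and are not reported here. Protein features, planned at first, were not analysed here.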

Additional observations from a re-analysis of the deposited data

How the results depend on the processing

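Each count and the median were recomputed under 7 alternatives. Members at least 2-fold lower numbered 11, but 7 with cyclic loess, 5 with a neqc offset of 50, and 0 without background correction or with the authors' values, while the share of all genes was 1.81%, then 1.42%, 1.19%, 0.553% and 0.578%. Members at least 1.5-fold lower numbered 36, but 14 without background correction and 14 with the authors' values, and those 1.5-fold higher 5, but 2 and 2. In the same order, 8.28%, 3.12% and 3.22% of all genes were 1.5-fold lower, and 9.25%, 5.54% and 5.69% were higher. The cause of these changes was not tested. The median of the members was -0.30, and became -0.19 without background correction, -0.20 with the authors' values, -0.23 with cyclic loess, -0.27 with the offset of 50, -0.33 with the mean of all detected probes and -0.29 at a detection p under 0.05. The median of all detected genes lay between -0.06 and 0.01 in all of these. Members below 0 numbered 107, but 103 of 144 with cyclic loess, 99 of 131 detected on both arrays and 118 of 161 at a detection p under 0.05. Background correction, the offset and the authors' normalization keep the rank of probes and could hardly move that number, so it shows nothing about stability there. Members 2-fold higher numbered 2 or 3 throughout, while the share of all genes ran from 1.95% without background correction to 4.49% with cyclic loess. Of 49 named genes, 11 crossed the 2-fold limit without background correction and 11 with the authors' values. Among those at least 2-fold different 0 changed sign under any alternative, but most alternatives could hardly change a sign. Background correction, the offset and the authors' normalization keep the rank of probes, and the detection settings leave the ratio of these genes as it is. No paired analysis was possible because each group had 1 array, and no array could be left out. Signal over background limits the dim members most, and 5 of the 11 that were 2-fold lower lay in the dim band and 6 in the middle band.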

Other observations

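Zfp326 had 3 probes detected on both arrays, and they differed in size. The brightest read 1715 in CON and 2155 in Med1cKO, a log2 ratio of 0.44. The others read 279.5 and 491.6, and 265.5 and 469.5, with ratios of 1.49 and 1.57. All 3 were higher in the Med1cKO pool. Zfp771 had a bright probe with a ratio of 0.20 and a dimmer one with -0.57.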
